A study of Mus musculus with 8 samples.

Results

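Ier3, Maff, Klf10, Klf6, Nr4a2, Nab2 and Atf3 are 7 genes of the immediate early kind, chosen by symbol from the 12193 gene loci measured in this series. They were chosen with earlier results of these data known. Fos, Egr1 and Nr4a1, the best known genes of that kind, had no values here and so were not analysed. The cells were AtT-20, a mouse pituitary tumour line of corticotrope type that makes Pomc, the precursor of the stress hormone ACTH. All 4 groups were AtT-20 cells grown in medium with serum, and each had 2 RNA-seq libraries. One group was the EGFR line treated with EGF for 18 h, the second the EGFR line treated with EGF for 3 h, the third the EGFR line given water for 3 h, and the fourth the Neo control line given water for 3 h. The labels give neither the EGF dose, nor the promoter and species of the introduced EGFR, nor whether each line is 1 clone or a pool. EGF was given to the EGFR line alone, so a response in Neo cells was not tested, and with water sampled at 3 h alone, EGF at 18 h and time in culture cannot be told apart. The labels do not say that replicates were separate cultures, so every p-value measures the spread between these libraries, which may be technical.

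Immediate early genes are transcribed within minutes of a growth factor or stress signal, because the proteins that switch them on are already in the cell. EGF acts through its receptor on the RAS-ERK and STAT pathways, and the first wave of transcripts encodes transcription factors, co-repressors and feedback regulators, many of them short-lived. Of these 7 genes, Ier3 encodes a regulator of cell survival and of ERK signalling that binds no DNA, and Nab2 a co-repressor. Maff, Klf10, Klf6, Nr4a2 and Atf3 encode DNA-binding factors. No time earlier than 3 h was sampled, so the early peak of such genes was not measured, and whether a level at 3 h was a remnant of that peak was not tested.

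Values are FPKM as deposited, that is fragments scaled by transcript length and by library size, with the mean ± SD over n = 2 libraries. Fold changes and their tests are on the log2(FPKM + 1) scale, from limma across the 10874 genes that reached an FPKM of 1 in 2 or more libraries, adjusted by Benjamini-Hochberg within a comparison. A gene is said to have risen or fallen at an adjusted p below 0.05. That scale understates the change of genes at low FPKM, so ratios of mean FPKM are given beside it.

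Egfr itself was 25.9 to 31.9 FPKM in the 6 libraries of the EGFR line, against 0.0663 and 0.227 FPKM in the Neo libraries. Of 11 corticotrope markers, 9 had values, all at or above 1 FPKM in every library, and Pomc ran from 6981 to 8930 FPKM. Of 12 markers of other pituitary lineages only Gata2 had values (9.02 to 13.7 FPKM), and of 14 fibroblast, endothelial and blood markers none had values. The median over all loci was 14.3 to 14.7 FPKM in the 8 libraries. Small RNA took 29.1 to 32.8% of summed FPKM in the EGFR line, against 33.2 and 39.0% in Neo, and its part in the differences between the lines was not tested. The sums ran from 683834 to 808072 FPKM, so the alternative scaling that makes library sums equal is set in part by small RNA. It moved the median log2 fold change of all genes at 3 h against water from -0.04 to 0.03. Whether calls lost under that scaling follow from small RNA was not tested. In such bulk RNA, fewer cells that use a gene and less RNA per cell cannot be told apart.

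All 7 genes changed after 3 h of EGF, against 31.5% of all genes tested. Because earlier results of these data were known when the members were chosen, such contrasts with all genes are no independent support. Ier3, Maff, Klf10, Klf6 and Nab2 rose, where 11.8% of all genes did, and Nr4a2 and Atf3 fell, where 19.7% did, so the set did not move 1 way. After 18 h the same 5 genes were higher than in water (13.2% of all genes) and Nr4a2 was lower (18.7%), 6 of 7 against 31.9% of all genes, while Atf3 did not pass. The 3 h and 18 h comparisons share the 2 EGFR water libraries. Between the EGF times, Maff and Atf3 were higher at 18 h (17.7% of all genes) and Klf10 and Nab2 lower (16%), 4 of 7 against 33.7% in either direction. In water, Maff and Klf10 were lower in EGFR cells than in Neo cells, where 2.9% of all genes were, and no member was higher, where 3.11% of genes were.

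With 2 libraries a group, groups often fail to overlap without a call. The libraries of the 2 groups did not overlap for 6 of 7 members at 18 h against water (72% of all genes), all 7 at 3 h against water (70.5%), 6 of 7 at 18 h against 3 h (68.3%) and 5 of 7 in EGFR against Neo water (57.8%). Separation of libraries is given as a description. The members' median log2 fold change was 0.25 at 18 h and 0.64 at 3 h, against -0.03 and -0.04 over all genes. Given how the members were chosen, that contrast is a description too.

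**Figure D1:**
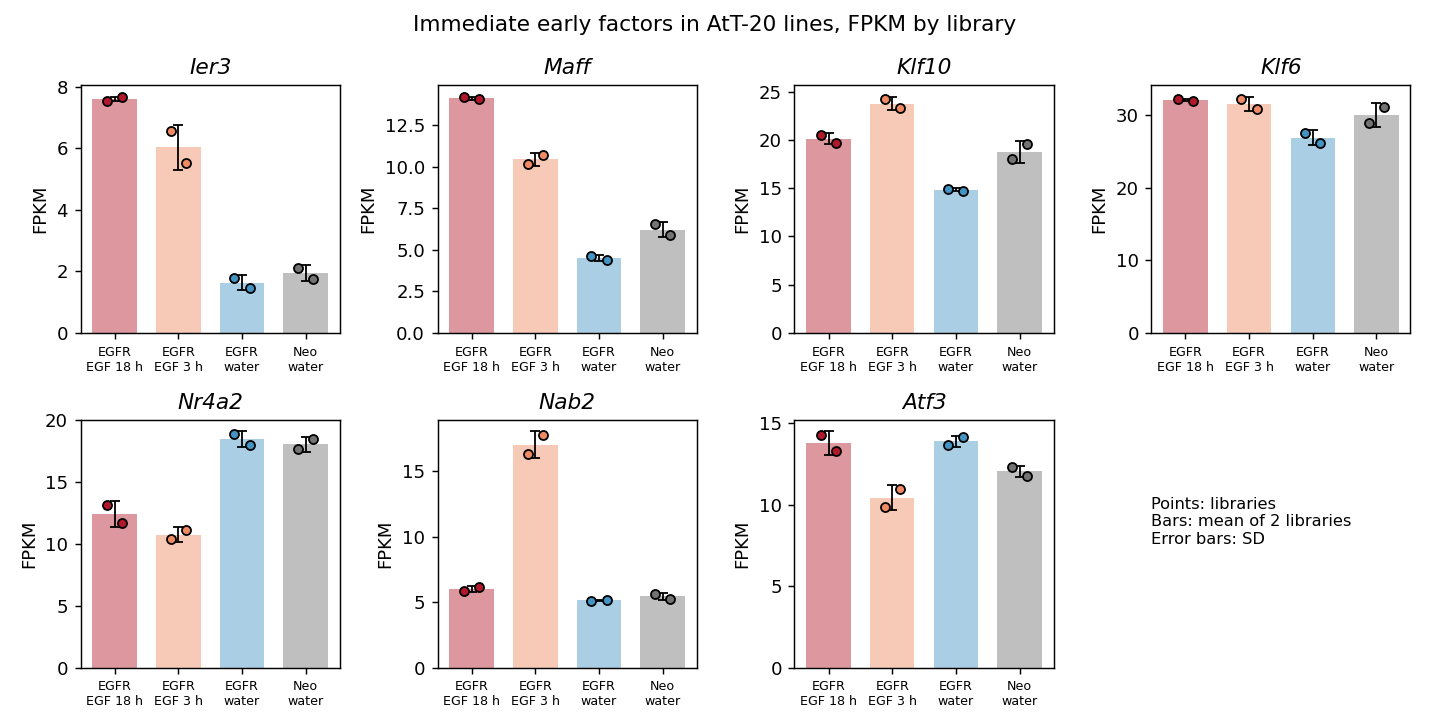
FPKM of the 7 genes in each of the 8 libraries, a panel per gene, with groups on the x axis from EGFR EGF 18 h to Neo water. Points are libraries, bars are means of 2 and error bars are SD. Ier3 and Maff are highest at 18 h (7.60 and 14.1 FPKM on average), Nab2 stands out at 3 h (17.0 FPKM), and Nr4a2 is low at both EGF times.

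**Figure D2:**
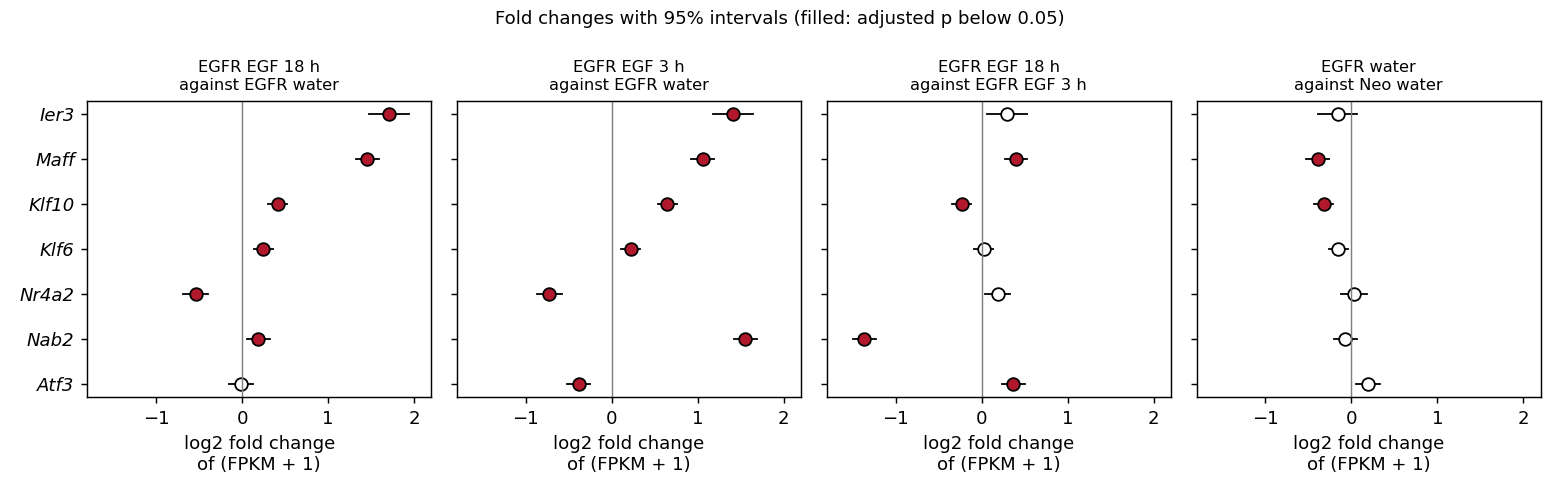
Log2 fold changes of (FPKM + 1) for the 7 genes in the 4 comparisons, with 95% intervals as lines and filled points at a limma adjusted p below 0.05. At 3 h, 5 points lie right of 0 and 2 left of it. Between the EGF times, Nab2 lies far to the left, at -1.36.

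Ier3 (ENSMUSG00000003541, mm10 chromosome 17, 35821684 to 35822923, plus strand, protein-coding) had the highest ratio of mean FPKM to EGFR water of the 7 at both EGF times, while Nab2 had the highest log2 fold change at 3 h. It was at 7.55 and 7.65 FPKM at 18 h of EGF, 6.55 and 5.51 FPKM at 3 h, 1.80 and 1.47 FPKM in EGFR water, and 2.13 and 1.77 FPKM in Neo water. The 4 EGF libraries lay above the 4 water libraries with no overlap. At 3 h the mean was 6.03 ± 0.74 FPKM, against 1.64 ± 0.23 FPKM in EGFR water, a ratio of 3.68 and a log2 fold change of 1.41 (SE 0.10, limma adjusted p = 1.91e-04). At 18 h it was 7.60 ± 0.07 FPKM, against the same water mean, a ratio of 4.64 and a log2 fold change of 1.71 (limma adjusted p = 3.81e-05). The step of 0.29 between 18 h and 3 h missed the threshold (95% interval 0.06 to 0.53, limma adjusted p = 0.0554). That step passed without the first 3 h library (adjusted p = 0.0462), with the replicate number as a block (0.0267), with only these 2 groups in the fit (0.0475) and over protein-coding loci alone (0.0204). EGFR water and Neo water overlapped and did not pass a test of their difference (log2 fold change -0.16, limma adjusted p = 0.348).

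Ier3 was the least abundant of the 7 genes, with 10.6% of tested genes below its mean over all libraries. By the estimated depth of the libraries, its values rest on about 339 to 483 fragments in an EGF library and 85.8 to 124 in a water library. That depth was sought within a preset window only, so these fragment numbers are rough. The other IER genes had smaller fold changes. Ier5, a partner of the phosphatase PP2A, rose at both times (log2 fold change 0.21 at 18 h, 0.38 at 3 h, limma adjusted p = 0.00498 and 6.53e-04). Ier2, a small nuclear protein of the same family, rose at 3 h alone among the EGF comparisons with water (0.29, adjusted p = 0.00383) and was lower at 18 h than at 3 h (-0.26, adjusted p = 0.00519). Ier5l fell at 18 h (-0.47, adjusted p = 0.00134). Its fall at 3 h (-0.21, adjusted p = 0.0369) did not pass with median-ratio scaling (0.0756), with library sums made equal (0.184) or without any 1 of the 3 h or EGFR water libraries (0.0726 to 0.167). Ier3ip1, which encodes a protein that interacts with IER3 and is no IER gene, was listed with these 3 and had no call against water.

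Maff (ENSMUSG00000042622, mm10 chromosome 15, 79347541 to 79359072, plus strand, protein-coding) encodes a small MAF protein, which binds DNA but has no activation domain of its own and pairs with NRF2 and its relatives. It was at 14.2 and 14.1 FPKM at 18 h of EGF, 10.2 and 10.7 FPKM at 3 h, 4.64 and 4.36 FPKM in EGFR water, and 6.54 and 5.90 FPKM in Neo water. No group overlapped another, and the order ran from 18 h down to EGFR water. The mean at 18 h was 14.1 ± 0.1 FPKM, against 4.50 ± 0.20 FPKM in EGFR water, a ratio of 3.14 and a log2 fold change of 1.46 (SE 0.06, limma adjusted p = 6.92e-06). At 3 h it was 10.4 ± 0.4 FPKM, against the same water mean, a ratio of 2.32 and a log2 fold change of 1.06 (limma adjusted p = 5.65e-05). Maff was also higher at 18 h than at 3 h, by 0.40 on the log2 scale (95% interval 0.27 to 0.53, limma adjusted p = 0.00260).

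Without EGF, Maff was lower in the EGFR line, at 4.50 ± 0.20 FPKM, against 6.22 ± 0.46 FPKM in Neo water, a log2 fold change of -0.39 (limma adjusted p = 0.0126). Only 6.01% of all genes passed in this comparison of the lines. The call was lost without the first Neo library (adjusted p = 0.0650), without the first or second EGFR water library (0.0635 and 0.0882), and with only these 2 groups in the fit (0.0645). Both EGF levels of Maff lay above the Neo level as well.

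Ier3 and Maff had the highest log2 fold changes of the members at 18 h against EGFR water. The start region of each is given here from RefSeq on GRCm38.p6, as 250 bases before the annotated start and 50 after it. It is printed 5′ to 3′ on the gene's strand. Of 3 Maff windows the one nearest the start of the deposited locus is shown, chr15:79347270-79347569, and that of Ier3 is chr17:35821463-35821762, both on the plus strand. Capitals mark matches to a cAMP response element (CRE, TGACGTCA), an EGR site (GCGNGGGCG) and a STAT site (TTCNNNGAA).
Ier3: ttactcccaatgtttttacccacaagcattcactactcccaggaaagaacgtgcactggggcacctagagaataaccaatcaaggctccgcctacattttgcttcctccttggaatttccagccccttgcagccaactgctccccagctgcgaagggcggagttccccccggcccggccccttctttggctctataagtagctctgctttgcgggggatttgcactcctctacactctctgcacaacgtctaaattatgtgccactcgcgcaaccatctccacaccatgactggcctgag
Maff: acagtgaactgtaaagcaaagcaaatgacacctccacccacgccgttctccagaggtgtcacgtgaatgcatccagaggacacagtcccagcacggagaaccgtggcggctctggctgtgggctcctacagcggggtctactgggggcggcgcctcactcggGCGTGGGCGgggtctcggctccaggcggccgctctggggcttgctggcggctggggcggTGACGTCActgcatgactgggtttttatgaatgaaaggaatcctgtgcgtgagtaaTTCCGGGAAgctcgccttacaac
The Maff window held all 3, with the EGR site starting 88 bases and the CRE 29 bases before the start. The CRE was found in 1.79%, the EGR site in 5.55% and the STAT site in 8.30% of 32851 RefSeq windows of 300 bases, both strands searched. The Ier3 window held none of them, and of the motifs searched it matched only the GC box (GGGCGG), which 35.7% of windows held. The windows of 6 members were found, 8 in all, and none of the 8 held a CArG box, the serum response factor site, found in 1.63% of all windows.

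The partners of Maff moved in part. Mafk, another small MAF, rose at 18 h (13.2 ± 0.2 FPKM, against 9.62 ± 0.16 FPKM in EGFR water, log2 fold change 0.42, limma adjusted p = 2.28e-04) and at 3 h (log2 fold change 0.53, adjusted p = 1.91e-04). Mafg, the third small MAF, rose at 18 h (33.7 ± 0.2 FPKM, against 24.2 ± 0.8 FPKM in EGFR water, log2 fold change 0.46, adjusted p = 2.47e-04). Its rise of 0.19 at 3 h (adjusted p = 0.0139) was lost without the first EGFR water library (adjusted p = 0.0892). The 6 tested genes of small MAF proteins and their partners held no further call against water, while with median-ratio scaling 3 of them rose at each time. Of 18 NRF2 target genes, 5 rose and 1 fell at 18 h, and 1 rose and 1 fell at 3 h. Of all genes tested, 13.2% rose and 18.7% fell at 18 h, and 11.8% rose and 19.7% fell at 3 h. With median-ratio scaling 8 of the targets rose at 18 h and 5 at 3 h, where 17.0% and 16.4% of all genes rose. With library sums made equal, 2 of the targets rose and none fell at 18 h, and 3 rose and none fell at 3 h. That scaling left few falls over all genes too, with 10.9% risen and 6.48% fallen at 18 h, and 12.4% and 4.05% at 3 h. The median log2 fold change of those 18 was 0.03 at 18 h and -0.04 at 3 h. Single values ran from -0.26 to 1.12 at 18 h and from -0.17 to 0.21 at 3 h.

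Klf10 (ENSMUSG00000037465, mm10 chromosome 15, 38294413 to 38300707, minus strand, protein-coding) encodes a zinc-finger repressor first known as an early gene of TGF-beta signalling. It was at 20.5 and 19.7 FPKM at 18 h of EGF, 24.3 and 23.3 FPKM at 3 h, 14.96 and 14.7 FPKM in EGFR water, and 18.0 and 19.6 FPKM in Neo water. Klf10 was highest at 3 h and lowest in EGFR water, and no groups overlapped. At 3 h the mean was 23.8 ± 0.7 FPKM, against 14.8 ± 0.2 FPKM in EGFR water, a ratio of 1.601 and a log2 fold change of 0.64 (SE 0.05, limma adjusted p = 2.41e-04). At 18 h it was 20.1 ± 0.6 FPKM, a ratio of 1.36 to EGFR water and a log2 fold change of 0.41 (limma adjusted p = 8.33e-04).

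The 18 h mean of Klf10 lay 1.33 FPKM above the Neo water mean, less than the sum of their SDs (1.69 FPKM). Klf10 was lower at 18 h than at 3 h by a log2 fold change of -0.23 (limma adjusted p = 0.0107), a call lost without the first 3 h library (0.0583) or the second 18 h library (0.0636). In water it was lower in the EGFR line, at 14.8 ± 0.2 FPKM, against 18.8 ± 1.1 FPKM in Neo, a log2 fold change of -0.32 (adjusted p = 0.0147). That call was lost without the second Neo library (0.0512), without either EGFR water library (0.0938 and 0.0995), with these 2 groups alone (0.0599) and with library sums made equal (0.0935).

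Klf6 (ENSMUSG00000000078, mm10 chromosome 13, 5861489 to 5870393, plus strand, protein-coding), a zinc-finger factor known as a tumour suppressor, was the most abundant of the 7 and changed least at 3 h. It was at 32.2 and 32.0 FPKM at 18 h of EGF, 32.2 and 30.8 FPKM at 3 h, 27.6 and 26.2 FPKM in EGFR water, and 28.9 and 31.1 FPKM in Neo water. All 4 EGF libraries lay above the EGFR water libraries, but the 3 h libraries overlapped those of Neo water. The rise over EGFR water was 0.25 on the log2 scale at 18 h (limma adjusted p = 0.00724) and 0.22 at 3 h (adjusted p = 0.0127). Without the second EGFR water library neither passed (adjusted p = 0.0521 at 18 h and 0.0819 at 3 h), nor did the 3 h value without the first 3 h library (0.0709). Klf6 did not pass a test of 18 h against 3 h (log2 fold change 0.03, 95% interval -0.08 to 0.13, adjusted p = 0.708) or of EGFR against Neo in water (-0.15, adjusted p = 0.0998).

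Among 12 other KLF and SP family genes tested, 1 fell and none rose at 18 h, and 2 rose and 1 fell at 3 h. The shares over all genes were 13.2% risen and 18.7% fallen at 18 h, and 11.8% and 19.7% at 3 h. At 18 h none of the 12 fell with library sums made equal, and 1 of them rose with median-ratio scaling. Under these scalings 6.48% of all genes fell and 17.0% rose, respectively. The 2 that rose at 3 h were Klf4, a factor of growth arrest and pluripotency (18.0 ± 0.4 FPKM, against 13.4 ± 0.4 FPKM in EGFR water, log2 fold change 0.40, limma adjusted p = 7.06e-04), and Klf16 (0.40, adjusted p = 0.00123). Both were lower at 18 h than at 3 h (-0.33 and -0.34, adjusted p = 0.00156 and 0.00212). The 1 that fell at 3 h was Klf11, at 2.91 and 3.39 FPKM, against 4.79 and 4.46 FPKM in EGFR water (-0.44, limma adjusted p = 0.00448). Klf11 was higher at 18 h than at 3 h (0.40, adjusted p = 0.00552). Of 13 genes of the TGF-beta and SMAD pathway, 3 rose at 18 h and 5 at 3 h (8 with median-ratio scaling), and none fell. Median-ratio scaling gave 16.4% of all genes as risen at 3 h. Tgif1, a SMAD co-repressor, was at 10.4 ± 0.6 FPKM at 18 h and 12.5 ± 0.6 FPKM at 3 h, against 6.83 ± 0.28 FPKM in EGFR water (log2 fold change 0.54 and 0.79, adjusted p = 0.00101 and 3.77e-04). Ski, another SMAD co-repressor, rose by 0.37 at 18 h and 0.45 at 3 h (adjusted p = 0.00100 and 7.45e-04).

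Nr4a2 (ENSMUSG00000026826, mm10 chromosome 2, 57106830 to 57124003, minus strand, protein-coding) encodes Nurr1, an orphan nuclear receptor that CRH and cAMP induce in corticotropes and that acts on the Pomc promoter. It was at 13.1 and 11.7 FPKM at 18 h of EGF, 10.3 and 11.2 FPKM at 3 h, 18.9 and 18.0 FPKM in EGFR water, and 17.6 and 18.4 FPKM in Neo water. Every EGF library lay below every water library, while the EGFR and Neo water libraries overlapped. At 3 h Nr4a2 averaged 10.8 ± 0.6 FPKM, against 18.4 ± 0.6 FPKM in EGFR water, so it fell by 41.7% of mean FPKM (log2 fold change -0.73, SE 0.06, limma adjusted p = 4.25e-04). At 18 h it averaged 12.4 ± 1.0 FPKM and fell by 32.7% (log2 fold change -0.54, limma adjusted p = 8.64e-04). Its fold change at 3 h was the 57th lowest of the 10874 genes tested.

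The difference of Nr4a2 between 18 h and 3 h was 0.19 on the log2 scale (95% interval 0.04 to 0.34) and missed the threshold (limma adjusted p = 0.0521), but passed without the second 18 h library (0.0326), with a pseudocount of 0.1 (0.0482), with a minimum of 5 FPKM (0.0480) and over protein-coding loci alone (0.0256). Of its partners, the retinoid receptor gene Rxrb fell at 3 h, at 14.8 ± 0.4 FPKM, against 18.9 ± 0.1 FPKM in EGFR water (log2 fold change -0.33, adjusted p = 0.00189), and was higher at 18 h than at 3 h (0.31, adjusted p = 0.00215). Rxra did not pass at either time (log2 fold change 0.04 at 18 h and -0.14 at 3 h, adjusted p = 0.721 and 0.154). Pomc was at 7628 ± 281 FPKM at 18 h and 7206 ± 318 FPKM at 3 h, against 8274 ± 47 FPKM in EGFR water, and passed at neither time (log2 fold change -0.12 and -0.20, limma adjusted p = 0.207 and 0.0531). The 3 h value of Pomc passed in 5 alternatives, among them the fit without the second 3 h library (0.0342), with the same sign.

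Nr4a2 and Atf3, the 2 members below water at 3 h, have these start regions, Nr4a2 at chr2:57123954-57124253 and Atf3 at chr1:191183284-191183583, both on the minus strand and printed 5′ to 3′ along the gene. Capitals mark CRE cores (TGACG, or CGTCA on the other strand). In Nr4a2 they also mark an EGR site (GCGNGGGCG) and a match to the letters of a TATA box (TATAAA, here on the other strand). That match starts 164 bases before the start, and 13.6% of all windows held those letters. Whether it acts as a TATA box was not tested.
Nr4a2: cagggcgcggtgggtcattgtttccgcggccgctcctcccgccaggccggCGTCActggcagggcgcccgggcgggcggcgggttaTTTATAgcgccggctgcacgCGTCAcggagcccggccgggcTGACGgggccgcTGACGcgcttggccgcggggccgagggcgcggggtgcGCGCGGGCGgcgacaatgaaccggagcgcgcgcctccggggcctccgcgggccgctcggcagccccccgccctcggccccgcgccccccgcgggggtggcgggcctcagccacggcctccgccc
Atf3: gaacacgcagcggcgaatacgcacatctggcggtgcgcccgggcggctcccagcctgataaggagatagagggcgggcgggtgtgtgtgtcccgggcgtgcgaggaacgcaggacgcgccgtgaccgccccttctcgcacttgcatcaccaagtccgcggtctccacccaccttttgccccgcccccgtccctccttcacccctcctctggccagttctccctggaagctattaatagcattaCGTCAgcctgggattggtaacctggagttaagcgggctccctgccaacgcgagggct
The Nr4a2 window held 4 CRE cores, the nearest to the start at 111 bases before it, and the Atf3 window held 1, at 7 bases before it. The core is short and was found in 20.8% of all 32851 windows, and it stood in 2 of the 3 Maff windows too, within the CRE in the one printed. The start that RefSeq gives for Atf3 lies inside the deposited locus, which extends further upstream.

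Nab2 (ENSMUSG00000025402, mm10 chromosome 10, 127660918 to 127668568, minus strand, protein-coding) encodes a co-repressor that binds EGR factors and is itself induced by them. It was at 5.84 and 6.19 FPKM at 18 h of EGF, 16.3 and 17.7 FPKM at 3 h, 5.10 and 5.19 FPKM in EGFR water, and 5.64 and 5.25 FPKM in Neo water. The 2 libraries of 3 h of EGF stood apart from the other 6, which lay between 5.10 and 6.19 FPKM. At 3 h the mean was 17.0 ± 1.0 FPKM, against 5.14 ± 0.06 FPKM in EGFR water, a ratio of 3.31 and a log2 fold change of 1.55 (SE 0.06, limma adjusted p = 9.99e-06). That was the 24th highest fold change of the 10874 genes tested.

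At 18 h Nab2 averaged 6.01 ± 0.24 FPKM, against 17.0 ± 1.0 FPKM at 3 h, and so fell by 64.7% between the EGF times (log2 fold change -1.36, 95% interval -1.49 to -1.23, limma adjusted p = 2.81e-05). That was the 15th lowest fold change of the comparison. Against EGFR water the 18 h level was higher by 0.19 on the log2 scale (limma adjusted p = 0.0365). That small rise was lost with the replicate number as a block (0.0514), with no filter (0.0511) and on leaving out either EGFR water library (0.144 and 0.109) or either 18 h library (0.0731 and 0.163).

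Nab2 shares exon bases with 3 genes on the plus strand, and no source used here gives the strand setting of the counting, so reads in the shared bases cannot be assigned. The antisense gene Gm16229 covers 35.7% of Nab2's exon bases and was at 0.269 ± 0.066 FPKM at 3 h, against 0.0573 ± 0.0261 FPKM in EGFR water, below the filter of the test. Nemp1 shares 5.13% and was at 10.5 ± 0.2 FPKM at 3 h, against 10.3 ± 0.2 FPKM in EGFR water, with no call (log2 fold change 0.03, limma adjusted p = 0.525). Stat6 shares 1.36% and rose at 3 h by 0.34 (adjusted p = 0.00387). At 18 h against 3 h, Nemp1 was lower (-0.23, adjusted p = 0.00374) and Stat6 did not pass (-0.02, adjusted p = 0.778), beside -1.36 for Nab2. In an alignment of the members' transcripts to all annotated ones, Gm16229 was the only other gene that matched a member at 95% identity over 200 bases.

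Of the EGR and NAB family, Egr2 rose at both times, at 45.8 ± 2.2 FPKM at 18 h and 43.0 ± 0.9 FPKM at 3 h, against 30.8 ± 0.6 FPKM in EGFR water (log2 fold change 0.56 and 0.47, limma adjusted p = 1.14e-04 and 4.49e-04). Nab1, the paralog of Nab2, rose at 3 h (52.3 ± 2.4 FPKM, against 38.5 ± 1.4 FPKM in EGFR water, log2 fold change 0.43, adjusted p = 0.00128) and was lower at 18 h than at 3 h (-0.35, adjusted p = 0.00277). Egr2 did not pass between the times (0.09, adjusted p = 0.136). Listed with them were Chd3 and Chd4, chromatin remodellers that are neither EGR nor NAB genes. Chd3 had no call against water, and the small rises of Chd4 (0.15 at 18 h and 0.11 at 3 h, adjusted p = 0.0143 and 0.0392) did not pass with library sums made equal (0.0995 and 0.0822). The 3 h rise also failed with only these 2 groups in the fit (0.084), with no variance trend (0.0567) and with the replicate block (0.0603). It was lost on leaving out any 1 library of the EGFR line. The 18 h rise was lost without the second EGFR water library or either 18 h library.

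Atf3 (ENSMUSG00000026628, mm10 chromosome 1, 191170296 to 191218039, minus strand, protein-coding) encodes a stress-induced bZIP factor that represses from CRE sites and lies downstream of ATF4. It was at 14.3 and 13.3 FPKM at 18 h of EGF, 9.88 and 10.99 FPKM at 3 h, 13.7 and 14.1 FPKM in EGFR water, and 12.3 and 11.8 FPKM in Neo water. The 3 h libraries were the lowest of all 8, and the 18 h libraries spanned those of EGFR water. At 3 h Atf3 averaged 10.4 ± 0.8 FPKM, against 13.9 ± 0.3 FPKM in EGFR water, and so fell by 24.9% (log2 fold change -0.38, SE 0.06, limma adjusted p = 0.00384). At 18 h the difference from EGFR water was -0.01 (95% interval -0.15 to 0.12, limma adjusted p = 0.887). Atf3 was higher at 18 h than at 3 h by 0.37 (limma adjusted p = 0.00387). In water its level in the EGFR line was 13.9 ± 0.3 FPKM, against 12.04 ± 0.35 FPKM in Neo, with no call (log2 fold change 0.19, adjusted p = 0.0964).

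Of 14 tested genes listed with Atf3, which are ATF and CREB factors together with the related bZIP genes Ddit3 and Jdp2 and the cofactor genes Crebbp and Crtc2, 4 rose and 2 fell at 18 h, and 1 rose and 3 fell at 3 h. Over all genes tested, 13.2% rose and 18.7% fell at 18 h, and 11.8% rose and 19.7% fell at 3 h. Crebbp was 1 of the 4 that rose at 18 h (0.23, limma adjusted p = 0.0289), a call lost without either EGFR water library or without the first 18 h library. With library sums made equal, 3 of the 14 rose at 18 h and 1 at 3 h, and none fell. The shares of all genes were then 10.9% risen and 6.48% fallen at 18 h, and 12.4% and 4.05% at 3 h. Atf1 rose at 3 h (14.2 ± 0.2 FPKM, against 10.6 ± 0.7 FPKM in EGFR water, log2 fold change 0.39, limma adjusted p = 0.00167). Atf4, the main factor of the integrated stress response, fell at 18 h and 3 h (-0.20 and -0.24, adjusted p = 0.00414 and 0.00304), but neither passed with library sums made equal (0.0772 and 0.0986). Of 22 integrated stress response targets, 3 rose and 5 fell at 18 h, and 1 rose and 5 fell at 3 h. Chac1, a glutathione-degrading enzyme, and Nupr1, a stress-induced nuclear protein, fell at 3 h (-0.42 and -0.32, adjusted p = 4.49e-04 and 0.00145). With library sums made equal the targets counted 3 rises and 2 falls at 18 h, and 2 rises and 2 falls at 3 h.

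**Figure D3:**
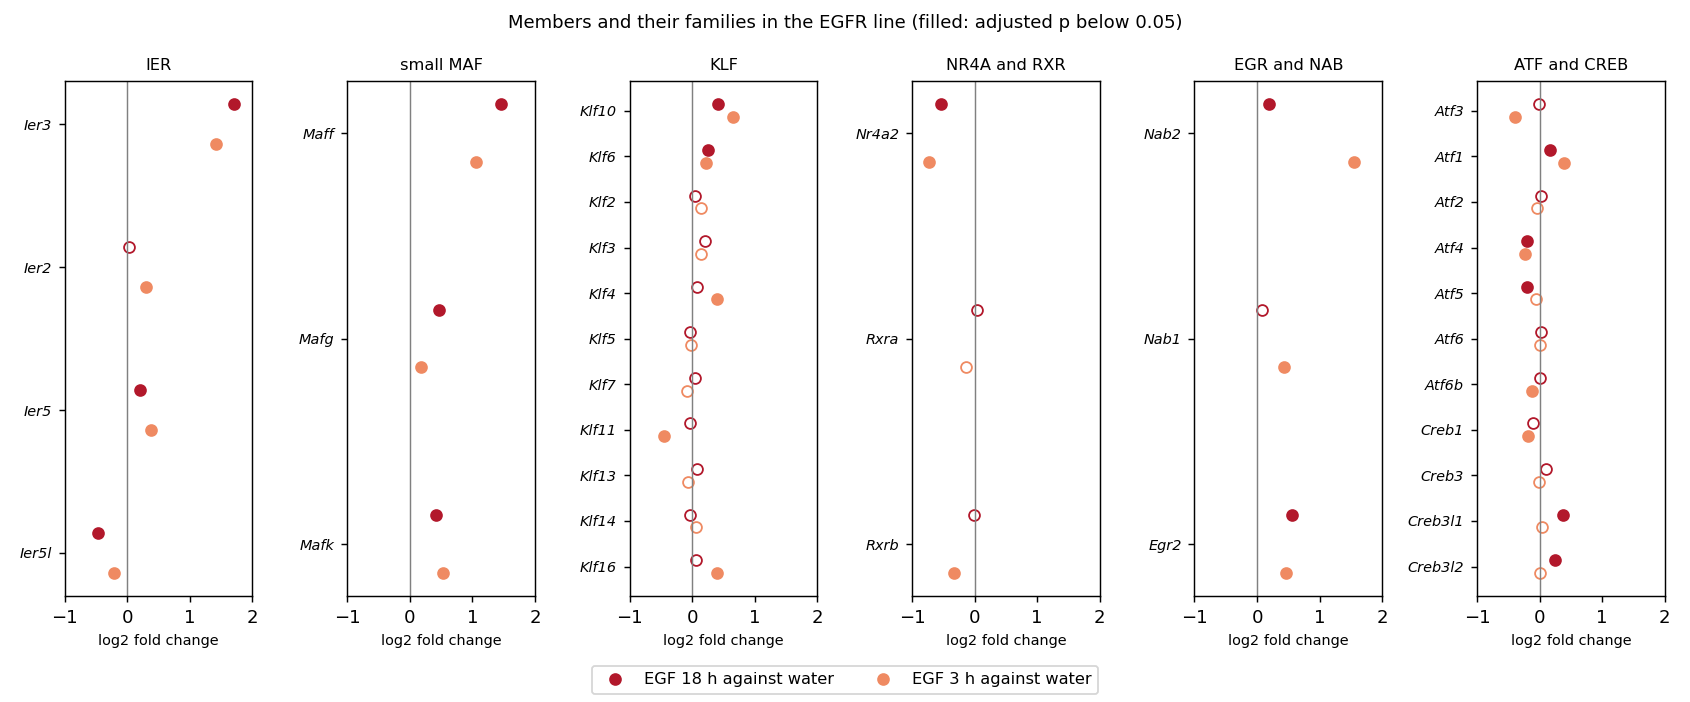
Log2 fold changes of (FPKM + 1) of the members and the tested genes of their families in the EGFR line, at 18 h (dark) and 3 h (light) of EGF against water, filled at a limma adjusted p below 0.05. The member leads each panel. Maff and Ier3 lie further right than the relatives drawn with them, and Nr4a2 further left. SP genes, Chd3, Chd4, Ier3ip1, Ddit3, Jdp2 and the cofactors of CREB are not drawn.

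A list of 61 other immediate early genes held 19 without values, among them Fos, Egr1, Nr4a1 and Myc. Of the 41 tested, 15 rose and 6 fell at 18 h, and 16 rose and 9 fell at 3 h. Their median log2 fold changes were 0.03 and 0.05. Between the times, 9 were higher and 12 lower at 18 h. Over all genes, 13.2% rose and 18.7% fell at 18 h, and 11.8% rose and 19.7% fell at 3 h. Between the times, 17.7% of all genes were higher and 16% lower at 18 h. With library sums made equal, 12 of the 41 rose and 5 fell at 18 h, and 16 rose and 5 fell at 3 h. Between the times 4 of the 41 were then higher and 11 lower. The shares of all genes with that scaling were 10.9% risen and 6.48% fallen at 18 h, and 12.4% and 4.05% at 3 h. Between the times they were 7.94% higher and 12.2% lower. Plk2, a kinase gene, and Hbegf, which encodes a ligand of the EGF receptor, rose most at 3 h (log2 fold change 1.39 and 1.27, limma adjusted p = 1.34e-06 and 3.94e-06) beside 1.55 for Nab2 and 1.41 for Ier3. Rgs2, Plk3, Irf1 and Errfi1 rose at 3 h by 0.98, 0.78, 0.63 and 0.60. Sgk1, a serum-induced kinase gene, had the largest fall, at 20.7 ± 0.4 FPKM, against 58.4 ± 0.2 FPKM in EGFR water (-1.45, adjusted p = 1.02e-05) beside -0.73 for Nr4a2. At 18 h Plk2 had risen by 1.71 (adjusted p = 2.30e-07), and Hbegf was lower at 18 h than at 3 h (-0.61, adjusted p = 1.52e-04).

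Of 8 genes of the serum response and ternary complex factors and their targets, 2 rose and 1 fell at 18 h, and 3 rose and none fell at 3 h. With library sums made equal 1 of the 8 rose and none fell at 18 h. The shares of all genes were again 13.2% risen and 18.7% fallen at 18 h, and 11.8% and 19.7% at 3 h, without that scaling. With it they were 10.9% risen and 6.48% fallen at 18 h, and 12.4% and 4.05% at 3 h. Actg1, cytoplasmic gamma actin, rose at 3 h (log2 fold change 0.39, limma adjusted p = 8.35e-04). Many immediate early transcripts are broken down through AU-rich sequences. Of 13 genes listed for that decay, 2 rose and 1 fell at 18 h, and 3 rose and 2 fell at 3 h. With library sums made equal none of the 13 fell at either time, where few of all genes did (6.48% at 18 h and 4.05% at 3 h). The list includes general deadenylation and RNA-binding genes, and its genes Zfp36 and Zfp36l1 had no values. Hnrnpd rose by 0.24 at both times (limma adjusted p = 0.00954 at 18 h and 0.0111 at 3 h). Each call was lost on leaving out the first EGFR water library, among others. Btg2 fell at 3 h (-0.23, adjusted p = 0.00510), but not with library sums made equal (0.123).

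**Figure D4:**
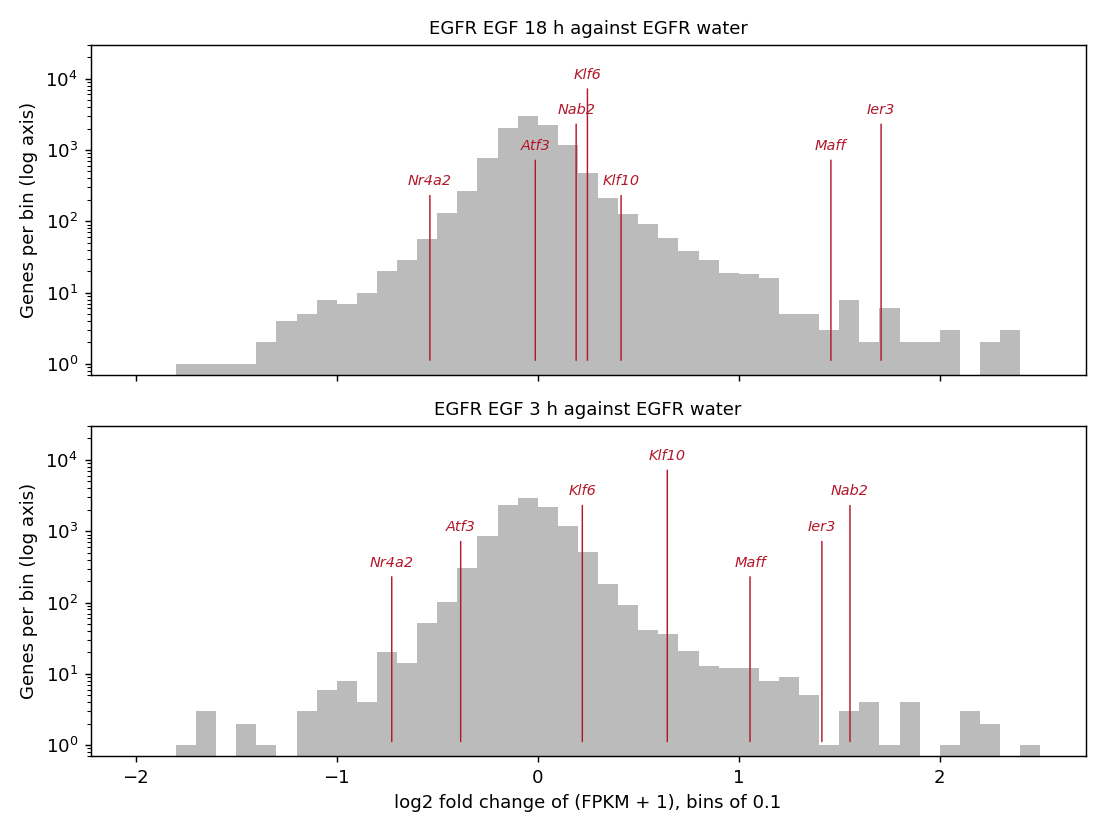
Histograms of the log2 fold changes of (FPKM + 1) of 10874 genes at 18 h (top) and 3 h (bottom) of EGF against water in the EGFR line, in bins of 0.1, with the number of genes on a log axis. Red lines mark the members, and 22 genes at 18 h and 18 at 3 h lie outside the range drawn. At 3 h Nab2 (1.55) and Ier3 (1.41) lie in the sparse right tail and Nr4a2 (-0.73) in the left. At 18 h Nab2 (0.19) and Atf3 (-0.01) lie within the bulk.

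For each member, the genes most like it were taken by Pearson's r of log2(FPKM + 1) over the 8 libraries, which form 4 groups of 2, among 634 protein-coding genes whose group means span at least 0.5. This r describes the shape of a profile and carries no test. Kcnh1 (r = 0.994), Golph3 and Plaur (both 0.992) were nearest to Ier3, and Tmem173 (0.998), Golph3 (0.993) and Rrbp1 (0.992) to Maff. Nearest to Klf10 were Errfi1 (0.966), Cxxc5 (0.958) and Spty2d1 (0.956). Klf6 had the lowest leading r of the 7, with Cacna1b (0.937), Neurl3 (0.895) and Samd9l (0.894). Sgk1 (0.991), Zrsr1 (0.985) and Aldh1b1 (0.977) were nearest to Nr4a2. Stbd1 (0.981), Frmd6 (0.973) and Chka (0.960) were nearest to Nab2, and Nyap1 (0.940), Tmco6 (0.928) and Foxn3 (0.907) to Atf3. Stbd1, which binds glycogen, was at 17.6 ± 0.5 FPKM at 18 h and 24.5 ± 0.1 FPKM at 3 h, against 15.3 ± 0.1 FPKM in EGFR water, with the same single high point as Nab2. Tmem173, also called Sting1, was at 4.81 ± 0.21 FPKM at 18 h and 3.13 ± 0.07 FPKM at 3 h, against 1.04 ± 0.05 FPKM in EGFR water and 1.71 ± 0.08 FPKM in Neo water, the order of groups seen for Maff.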

How the data were processed

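RNA was extracted on columns and sequenced on Illumina instruments, per the labels' protocols. The authors deposited FPKM for 12193 loci on mm10 in each of 8 libraries, and these were used as deposited. Per the submitters' processing notes the tools were Trimmomatic 0.22, TopHat2 2.0.8, HTSeq 0.5.4 and DESeq, while no source used here gives the program behind FPKM, the strand setting or how loci were chosen. Because each library is scaled by its own total, a few abundant transcripts can move the rest.

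No source used here gives the depth. Low FPKM values of 18 to 27 single-transcript genes per library were read as steps of 1 fragment. That reading, which was not tested, gave an estimate of 51.4 to 58.4 M fragments (quartiles 49.0 to 64.1). Only genes whose implied depth lay between 40 and 80 M were kept, so that preset window bounds the estimate and its quartiles. File starts were read as 0-based. The 7 members and 16 gene lists were chosen with earlier results of these data known, so no count over them is independent support.

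All 4 groups entered 1 limma-trend fit of log2(FPKM + 1), with 4 residual and 3.29 prior degrees of freedom, tested first on simulated data. The 10874 genes that reached an FPKM of 1 in 2 or more libraries were tested, adjusted over all of them in each of 4 comparisons, with a threshold of 0.05. The alternatives were a pseudocount of 0.1, a minimum of 5 FPKM or none, 3 other scalings, only the 2 groups compared, no variance trend, the replicate block, protein-coding loci, a threshold of 0.01 and each library left out.

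Named beside the members were, from family lists, up to 4 called genes per comparison by largest change with groups that do not overlap and a mean of 5 FPKM or more in 1 group, up to 8 other immediate early genes and up to 2 of each other list. Pomc, genes overlapping a member and 3 genes most like each member were also named. Rxra, Klf11, Egfr and marker levels are given as descriptions. A gene that the rule allows is not reported here. Promoters came from RefSeq windows, and transcripts of the members were aligned with minimap2 2.31 to GENCODE M21. R 4.3.3, limma 3.58.1, Python 3.11.15, pandas 2.3.3, NumPy 2.4.6 and matplotlib 3.10.9 were used.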

Additional observations from a re-analysis of the deposited data

Results flagged for a closer look

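The members Maff, Atf3, Klf10 and Nab2 differed in level between the EGF times by the test of that difference itself. Maff was higher at 18 h than at 3 h by 0.40 on the log2(FPKM + 1) scale and Atf3 by 0.37. Klf10 was lower at 18 h than at 3 h, at -0.23, and Nab2 at -1.36. The limma adjusted p values were 0.00260 for Maff, 0.00387 for Atf3, 0.0107 for Klf10 and 2.81e-05 for Nab2, and both 18 h libraries lay on the same side of both 3 h libraries in each case. Such separation was common, as the libraries of 68.3% of all genes did not overlap in this comparison. A call was made for 33.7% of all genes. The Klf10 call was lost on leaving out 1 of 2 libraries (adjusted p = 0.0583 without the first 3 h library and 0.0636 without the second 18 h library). Water at 18 h was not sampled.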

How the results depend on the processing

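Over 19 alternatives, the 28 fold changes of the members gave 532 values, of which 490 kept their direction and side of the threshold, 25 lost the call, 8 gained one and 9 changed sign. Calls lost or gained are given beside each gene, apart from those lost at a threshold of 0.01. The sign changes were all of values with no call: Klf6 at 18 h against 3 h (-0.020 with library sums made equal, and -0.0063 to 0.057 with 1 library left out), Nr4a2 in EGFR against Neo water (-0.0022 to 0.063 with 1 library left out, negative without the first Neo or first EGFR water library), Nab2 in the same comparison (0.0024 with sums made equal) and Atf3 at 18 h against water (0.018 and 0.020 with median-ratio and equal-sum scaling, and -0.061 to 0.037 with 1 library left out, positive without the second EGFR water or second 18 h library). The 2 members called in EGFR against Neo water became 1 with sums made equal and 0 with only the 2 groups fitted or at a threshold of 0.01, and 0 to 2 with 1 library left out. With 1 library left out, 6 to 7 members were called at 3 h, 4 to 6 at 18 h and 4 between the times. The uncalled 18 h against 3 h value of Stat6, which overlaps Nab2, ran from -0.0501 to 0.00696. Where that leaves a group with 1 library, it is assumed to vary like the other groups.

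Of all genes tested, 653 passed in EGFR against Neo water, 412 with sums made equal, 237 with the 2 groups alone, 382 with the replicate block, 113 at a threshold of 0.01 and 85 to 689 with 1 library left out. At 3 h 3425 passed, 1786 with sums made equal, 1377 at 0.01 and 1445 to 3356 with 1 library left out. At 18 h 3467 passed, 1894, 1739 and 1795 to 3609 under the same 3 changes, and between the times 3663, 2193, 1666 and 1877 to 3645. The share of calls that were higher was 37.5% at 3 h, 53.5% with median-ratio scaling and 75.4% with sums made equal, and 41.4, 53.3 and 62.8% at 18 h.

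Same-numbered replicates deviated from their group means with correlations of -0.17 to 0.31 between groups. These values cannot decide whether the replicate number pairs the libraries, because the 2 deviations within a group mirror each other. The labels do not say whether same-numbered libraries shared a batch. With the number as a replicate block, Nab2 at 18 h against water lost its call (adjusted p = 0.0514), Ier3 at 18 h against 3 h gained one (0.0267), and no other member call changed.

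With 2 libraries a group, only small spread can be estimated. Counts and read totals were not used here, so no count model was run.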
